A study of Homo sapiens with 6 samples.

Results

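Histone deacetylases (HDACs) remove acetyl groups from lysines of histones and other proteins and oppose the acetyltransferases that add them. The zinc-dependent family is divided by sequence into class I (HDAC1, HDAC2, HDAC3 and HDAC8), which is largely nuclear, class IIa (HDAC4, HDAC5, HDAC7 and HDAC9), which moves between nucleus and cytoplasm, and class IIb (HDAC6 and HDAC10). HDAC1 and HDAC2 are catalytic subunits of the Sin3, NuRD and CoREST corepressor complexes, HDAC3 is that of the NCoR and SMRT complexes, and HDAC7 is a class IIa enzyme known for its role in lymphoid precursors. Together with HDAC11, which forms a class of its own, and the unrelated sirtuins they make up the main lysine deacetylases of human cells.

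The 10 genes HDAC1 to HDAC10 were described here. They were taken by symbol from the FPKM table and by the Ensembl identifier paired with it from the count table, which holds 57905 genes, and all 10 passed the filter on low counts. RNA-SEQ counts were available for NALM6, a human cell line from B cell precursor acute lymphoblastic leukemia. Of the 6 libraries, 3 came from cells given the solvent DMSO and 3 from cells given 500 nM of THZ1, a covalent inhibitor of the transcription kinase CDK7, each for 24 h. The study's methods speak of independent experiments in general, but the sources do not say for these libraries whether the 3 of a treatment came from separate cultures, so the p-values may measure only the spread between these libraries, which may be technical. A single cell line was used, the sources name no spike-in RNA, and less mRNA per cell and fewer cells that express a gene cannot be told apart in such bulk libraries.

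The DMSO-treated libraries held 11015480 to 11164840 counts and the THZ1-treated libraries 7876402 to 8314306. Values are given as CPM, counts scaled to a common total with library sizes adjusted by TMM, and 3 counts corresponded to at most 0.253 CPM in a DMSO-treated and 0.415 CPM in a THZ1-treated library. Such limits cover counting error only. Genes were tested with edgeR's quasi-likelihood test, adjusted by Benjamini-Hochberg over the 16622 genes that passed the filter, and a gene was called at an adjusted p-value below 0.05, which 84.5% of them reached, 41.1% lower and 43.5% higher. B cell precursor markers (PAX5, VPREB1 and others) summed to 3685 to 3789.7 CPM with DMSO and to 1876 to 1949 CPM with THZ1, and of the 9 used 7 were lower and 2 higher. T cell markers reached at most 5 counts in any library for the 4 of 5 in the table. Myeloid markers summed to 3.88 to 4.63 CPM with DMSO and 18.5 to 20.1 CPM with THZ1, with 2 of 5 called higher and 1 lower, and erythroid markers to 0.164 to 0.253 and 2.94 to 3.81 CPM, with 1 of the 3 used called higher. The part of these markers in the HDAC values was not tested.

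THZ1 treatment changed the HDAC family in both directions. HDAC1 and HDAC5 rose, HDAC2, HDAC3, HDAC4, HDAC7, HDAC8 and HDAC9 fell, HDAC10 rose in the counts alone, and HDAC6 was not called. This made 6 members lower and 3 higher of the 10 tested. Over all genes tested, 84.5% were called in either direction, 41.1% lower and 43.5% higher, so that a call by itself says little about any single member. When a log2 difference of 1.5 or more was also asked for, 2 members were lower and 0 higher, against 12.9% and 24.6% of all genes (37.5% in either direction). The highest member, HDAC1, was at 1.22, and at 1.41 under the scaling with upper quartile factors. The median log2 fold change of the 10 members was −0.61, against 0.03 for all genes tested. The members are protein-coding, while the genes tested also include non-coding ones. Among the protein-coding genes tested, the median was 0.69 for annotated spans under 10 kb and −0.68 for spans of at least 200 kb. The share called lower was 25.4% and 63.4% in these span classes, and the share called higher 60.5% and 19.1%. In CPM the treatments did not overlap for 9 of the 10 members, HDAC6 being the exception, where 84.7% of all genes did not overlap. In FPKM, where 82.6% of genes did not overlap, HDAC6 was apart as well, at 15.8 to 16.4 FPKM with DMSO and 12.0 to 14.2 FPKM with THZ1.

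**Figure D1:**
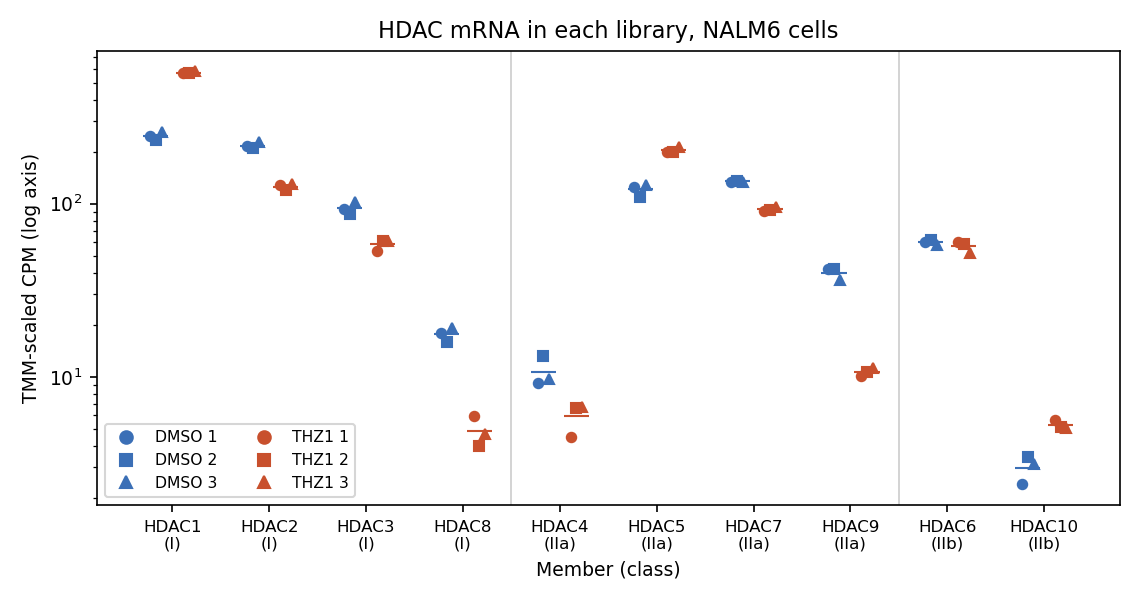
TMM-scaled CPM of the 10 HDAC genes in each library on a log axis, with DMSO in blue and THZ1 in red, one symbol shape per replicate number and a line at the mean of the 3 libraries. HDAC1, HDAC5 and HDAC10 lie higher in every THZ1-treated library, HDAC6 overlaps, and the other 6 lie lower.

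Among the class I enzymes, the close paralogs HDAC1 and HDAC2 moved in opposite directions. HDAC1 lies on chromosome 1 from 32757684 to 32799236 on the forward strand of GRCh37, and HDAC2 on chromosome 6 from 114254192 to 114332472 on the reverse strand. HDAC1 had 246, 233 and 259 CPM in the DMSO-treated libraries and 566, 570.5 and 581 CPM in the THZ1-treated libraries. Each THZ1-treated library was above each DMSO-treated library, and the mean rose from 246 ± 13.1 to 573 ± 7.81 CPM (SD, n = 3 each), 2.33-fold. The log2 difference, fitted by edgeR, was 1.22 (SE, the standard error, 0.07, edgeR adjusted p = 5.0e-17). HDAC2 had 214, 209 and 226 CPM with DMSO and 128, 119 and 129 CPM with THZ1, so that its groups were apart in the opposite direction. Its log2 fold change was −0.79 (SE 0.07, edgeR adjusted p = 7.4e-12). The processed pseudogenes of HDAC1, HDAC1P1 and HDAC1P2, held at most 1 count in any library.

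The promoters of this pair are shown because the genes changed in opposite directions. The sequences are the 250 bases before the RefSeq start of each gene in GRCh38.p14, on the strand of the gene, chr1:32291833-32292082 for HDAC1 and chr6:113971149-113971398 for HDAC2. Capitals mark matches, on either strand, to 4 short motifs, the E-box (CACGTG), the GC box (GGGCGG), the CCAAT box (CCAAT) and the TATA box (TATAAA).
HDAC1: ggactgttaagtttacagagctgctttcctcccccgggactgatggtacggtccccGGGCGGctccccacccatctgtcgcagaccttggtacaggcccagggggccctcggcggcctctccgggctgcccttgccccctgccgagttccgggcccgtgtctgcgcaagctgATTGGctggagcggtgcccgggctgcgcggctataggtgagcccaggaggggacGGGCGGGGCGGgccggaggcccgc
HDAC2: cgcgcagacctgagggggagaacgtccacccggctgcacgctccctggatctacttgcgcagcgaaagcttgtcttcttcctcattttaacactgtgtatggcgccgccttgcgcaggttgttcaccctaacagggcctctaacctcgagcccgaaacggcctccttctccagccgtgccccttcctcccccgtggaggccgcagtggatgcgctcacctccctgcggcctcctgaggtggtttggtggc
HDAC1 had 3 GC boxes, 2 of them overlapping, and 1 CCAAT box, read as ATTGG on this strand, whereas HDAC2 had none of the 4 motifs. Over 35116 RefSeq starts, the GC box was found in 42.6% of such windows, the CCAAT box in 32.0%, the TATA box in 10.7% and the E-box in 6.34%. The G and C content was 71.6% for HDAC1 and 63.2% for HDAC2. The RefSeq table gave 19 starts for 9 of the members, with no entry for HDAC5, and 8 of the 19 had a GC box, 7 a CCAAT box, 1 an E-box and 0 a TATA box.

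HDAC3, on chromosome 5 from 141000443 to 141016416 (reverse strand), fell from 94.4 ± 7.25 to 58.4 ± 4.67 CPM. Its values were 93.4, 87.6 and 102.02 CPM with DMSO and 53.0, 61.3 and 60.8 CPM with THZ1, without overlap. The log2 fold change of HDAC3 was −0.69 (SE 0.08, edgeR adjusted p = 7.0e-09). HDAC8, which deacetylates the cohesin subunit SMC3, lies on chromosome X from 71549366 to 71792951 (reverse strand). It had 17.9, 15.9 and 19.2 CPM with DMSO and 5.92, 4.01 and 4.68 CPM with THZ1, the lowest class I values in either group. HDAC8 fell by 1.85 on the log2 scale (SE 0.17, edgeR adjusted p = 1.8e-11), 3.61-fold. A long non-coding gene, ENSG00000228737, shares 426 exonic bases with HDAC3 on the opposite strand and fell by 1.08 on the log2 scale (edgeR adjusted p = 3.4e-09). The strand setting of the counting is not given in the sources used here. Reads from bases shared by such overlapping genes may thus have been counted for the other gene or for neither. Of the 29 overlapping genes in the count table, 8 were tested.

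Of the class IIa enzymes, HDAC5 rose and the other 3 fell. HDAC5, on chromosome 17 from 42154114 to 42201070 (reverse strand), had 125, 110 and 128 CPM with DMSO and 200.1, 199 and 213 CPM with THZ1. The lowest THZ1-treated library was above the highest DMSO-treated library, and the log2 fold change was 0.75 (SE 0.07, edgeR adjusted p = 5.2e-11). HDAC7, on chromosome 12 from 48176505 to 48226915 (reverse strand), had 134, 136 and 134 CPM with DMSO and 90.3, 92.6 and 95.2 CPM with THZ1. Replicates of HDAC7 lay close together, with SDs of 1.13 and 2.42 CPM, and it fell by 0.54 on the log2 scale (edgeR adjusted p = 4.2e-08), the smallest change among the called members. HDAC9, on chromosome 7 from 18126572 to 19042039 (forward strand), had the lowest fitted log2 fold change, close to that of HDAC8. It had 41.8, 42.0 and 36.3 CPM with DMSO and 10.1, 10.7 and 11.2 CPM with THZ1, and its log2 fold change was −1.91 (SE 0.12, edgeR adjusted p = 1.6e-15), 3.75-fold lower. The log2 fold changes of HDAC9 and HDAC8 differed by less than either SE, and their order turned without THZ1 replicate 1 (−1.88 and −2.02) and without DMSO replicate 2 (−1.89 and −1.94). The counts behind HDAC9 were 506, 512 and 430 with DMSO and 77, 77 and 84 with THZ1.

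HDAC4, on chromosome 2 from 239969864 to 240323348 (reverse strand), had the lowest CPM of the class IIa genes and the widest standard error. It held 112, 161 and 115 counts with DMSO and 34, 48 and 50 counts with THZ1, or 9.26, 13.2 and 9.70 CPM against 4.47, 6.64 and 6.68 CPM. Its groups did not overlap, and its log2 fold change was −0.86 (SE 0.19, edgeR adjusted p = 1.7e-04). HDAC4-AS1, a long non-coding RNA gene on the opposite strand that shares 101 exonic bases with HDAC4, went the other way. It held 4, 6 and 10 counts with DMSO and 106, 124 and 111 counts with THZ1, and its log2 fold change was 4.76 (SE 0.27, edgeR adjusted p = 7.2e-17). HDAC4-AS1 passed the filter on low counts only through the THZ1-treated libraries, so this p-value gives no separate support for a rise. In RefSeq the start of HDAC4-AS1 lies 71 or 99 bases upstream, or 213 bases downstream, of the farthest upstream start of HDAC4, depending on the transcript. The stretch before that HDAC4 start, chr2:239401650-239401899 of GRCh38.p14 on the reverse strand, is shown because both genes start there.
HDAC4: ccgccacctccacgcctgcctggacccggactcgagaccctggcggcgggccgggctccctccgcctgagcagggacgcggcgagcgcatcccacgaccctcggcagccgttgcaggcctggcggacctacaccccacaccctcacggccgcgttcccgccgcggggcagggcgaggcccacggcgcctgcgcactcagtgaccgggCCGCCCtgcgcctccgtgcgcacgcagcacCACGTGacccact
It held 1 E-box, close to the start, and 1 GC box, read as CCGCCC, with a G and C content of 76.8% and 33 CpG dinucleotides, where the median over all starts was 58% and 11. The E-box was the only one found at a start of these genes.

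Both class IIb genes were less clear. HDAC6, the cytoplasmic deacetylase of tubulin, lies on chromosome X from 48659784 to 48683392 (forward strand). It had 60.4, 61.6 and 57.5 CPM with DMSO and 60.5, 58.8 and 52.0 CPM with THZ1, so that the treatments overlapped. Its log2 fold change of −0.07 had a 95% confidence interval from −0.24 to 0.11 (edgeR adjusted p = 0.462). Scaled by library size alone the log2 fold change of HDAC6 was −0.32 (edgeR adjusted p = 0.00161), under which 86.1% of all genes were called, 48% lower and 38% higher, and in log2(FPKM + 1) −0.27 (adjusted p = 0.0247 by limma), where 80.5% of the genes tested were called, 44.6% lower and 35.9% higher. Whether HDAC6 was called lower thus depended on the table and the scaling. HDAC10, a polyamine deacetylase, lies on chromosome 22 from 50683612 to 50689834 (reverse strand). It held 29, 42 and 37 counts with DMSO and 43, 37 and 38 counts with THZ1, or 2.40, 3.44 and 3.12 CPM against 5.65, 5.12 and 5.08 CPM. The log2 fold change was 0.82 (SE 0.24, edgeR adjusted p = 0.00216). The raw counts thus stayed within one range, and the groups separated after scaling to the smaller THZ1-treated libraries. In the FPKM table, in which 82.6% of genes did not overlap, HDAC10 was lower in every THZ1-treated library, at 2.14, 2.68 and 2.67 FPKM with DMSO and 1.89, 1.65 and 1.73 FPKM with THZ1 (log2 fold change −0.34, adjusted p = 0.0507 by limma on log2(FPKM + 1)). HDAC10 shares 2763 of its exonic bases with MAPK12 on the same strand, and MAPK12 fell by 0.34 on the log2 scale (edgeR adjusted p = 0.00217).

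**Figure D2:**
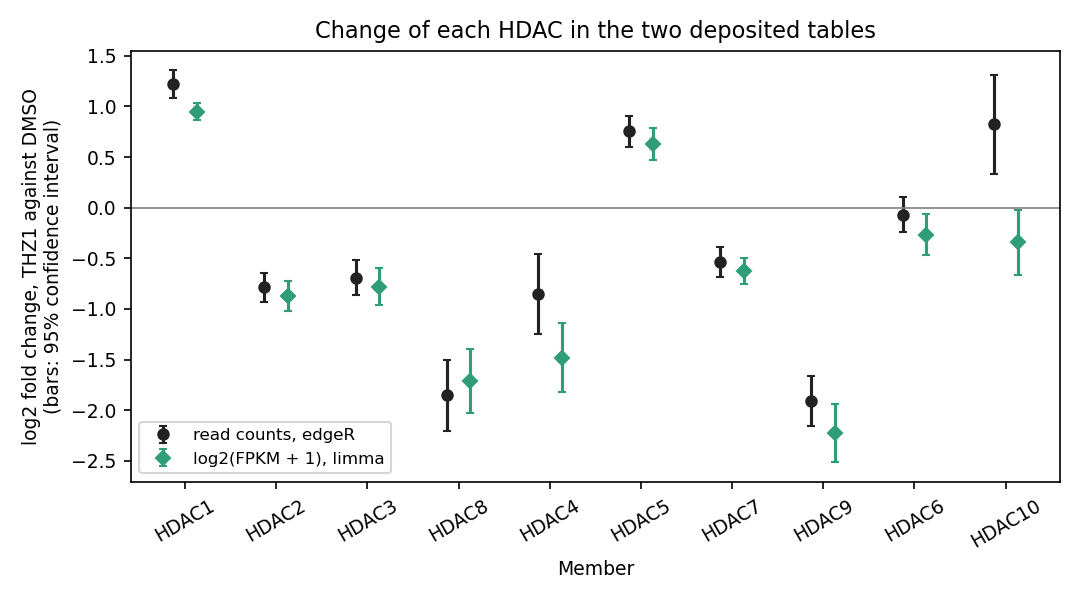
Log2 fold change of each HDAC gene with THZ1 against DMSO, with 95% confidence intervals, from the read counts with edgeR (black circles) and from log2(FPKM + 1) with limma (green diamonds), 3 libraries per treatment. Of the 10 genes, 9 have the same sign in both tables, while HDAC10 is at 0.82 in the counts and −0.34 in FPKM.

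The second table, read as log2(FPKM + 1), allowed levels to be compared between members, since FPKM is scaled by gene length. Its offset and a step that made libraries of one treatment nearly alike in distribution are not described in the sources. With DMSO the order was HDAC1 at 181 ± 1.86 FPKM, HDAC3 at 57.2 ± 3.05, HDAC5 at 44.1 ± 3.08, HDAC2 at 39.2 ± 1.11, HDAC7 at 37.7 ± 0.684, HDAC6 at 16.2 ± 0.360 and HDAC9 at 7.45 ± 0.402 FPKM (SD, n = 3 each). HDAC4, HDAC8 and HDAC10 followed at 3.11, 3.02 and 2.50 FPKM. The ranges of HDAC2 and HDAC7 overlapped, as did those of HDAC4 with HDAC8 and of HDAC8 with HDAC10. With THZ1 HDAC1 had 350.1 ± 8.53 FPKM and HDAC5, now in the second place, 68.7 ± 2.55 FPKM. HDAC9, HDAC4 and HDAC8 closed the order with THZ1 at 0.810, 0.467 and 0.226 FPKM, and none of the neighbours overlapped in range. The log2 fold changes of these low genes depended on the table and on the pseudocount. Before any pseudocount, mean FPKM went from 3.02 to 0.226 for HDAC8, from 3.11 to 0.467 for HDAC4 and from 7.45 to 0.810 for HDAC9. Mean CPM went from 17.7 to 4.87, from 10.7 to 5.93 and from 40.0 to 10.7. The cause of this difference between the tables was not tested. With 1 added to FPKM they were −2.22 for HDAC9, −1.48 for HDAC4 and −1.71 for HDAC8, against −1.91, −0.86 and −1.85 in the counts, and with 0.1 added they were −3.06, −2.51 and −3.26.

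HDAC1 made up 46.2% ± 0.673 of the summed FPKM of the 10 members with DMSO and 68.2% ± 0.0830 with THZ1. The sum itself was 391 ± 6.0 FPKM with DMSO and 513 ± 13.1 FPKM with THZ1, whereas without HDAC1 it was 210.5 ± 5.51 and 163 ± 4.56 FPKM. Class I held 71.6% ± 0.167 of the sum with DMSO and 78.8% ± 0.184 with THZ1, class IIa 23.6% ± 0.189 and 18.3% ± 0.215, and class IIb 4.77% ± 0.178 and 2.94% ± 0.303. The 3 libraries of each treatment lay apart in every class (two-sided exact permutation test, p = 0.1, which is the lowest value this design can reach, and 0.1 after adjustment over the 3 classes). Without HDAC1 the remaining class I share was 47.3% with DMSO and 33.2% with THZ1, and the class IIa share 43.9% and 57.6%, the reverse of the order with all members.

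**Figure D3:**
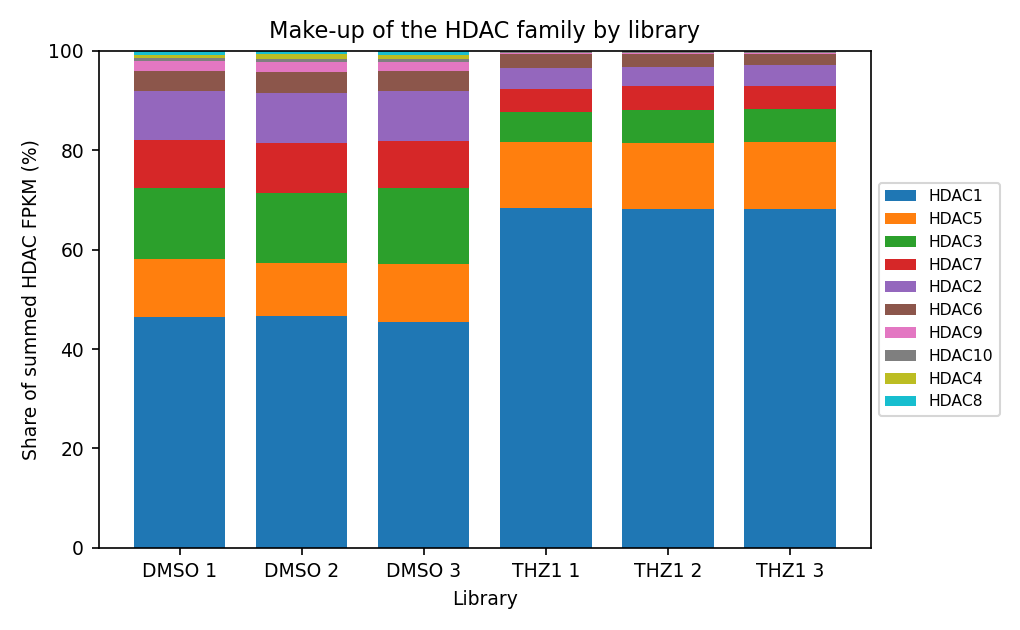
Share of each HDAC gene in the summed FPKM of the 10 genes, in percent, for each of the 6 libraries, stacked from the most to the least abundant. The HDAC1 part is 45.5% to 46.7% in the DMSO-treated and 68.1% to 68.3% in the THZ1-treated libraries.

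Ratios of 2 genes within a library do not depend on how libraries are scaled against each other. For every HDAC2 count there were 1.13 HDAC1 counts with DMSO and 4.56 with THZ1 (geometric means), a difference of 2.01 in the log2 ratio. The log2 ratio of HDAC1 to HDAC2 was 0.20, 0.15 and 0.20 with DMSO and 2.14, 2.26 and 2.17 with THZ1, with no overlap. The log2 ratio of HDAC5 to HDAC4 differed by 1.60, that of HDAC7 to HDAC9 by 1.36 and that of HDAC3 to HDAC8 by 1.16, each higher with THZ1. In FPKM with 0.1 added these differences were 3.15, 2.41 and 2.47, so that their size depended on the table. The log2 ratio of HDAC1 to HDAC2 differed by 1.85 in FPKM. The log2 ratio of HDAC6 to HDAC10 was 0.90 lower with THZ1 in the counts and 0.20 higher in FPKM. Each of the 5 ratios was apart between treatments in the counts (two-sided exact permutation test, p = 0.1, again the lowest value within reach, and 0.1 after adjustment over the 5 ratios).

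The 3 members with the lowest log2 fold changes, HDAC9, HDAC8 and HDAC4, were also those with the longest annotated spans, 915.5 kb, 244 kb and 353 kb, although HDAC4 at −0.86 and HDAC2 at −0.79 differed by less than the standard error of HDAC4. Of the 724 protein-coding genes tested that span at least 200 kb, 63.4% were lower with THZ1, and their median log2 fold change was −0.68 (quartiles −1.41 and 0.05). Within this class HDAC4 was at the 43.5 percentile, HDAC8 at 13.4 and HDAC9 at 12.3. HDAC1, HDAC5, HDAC7 and HDAC2 span 30 to 100 kb, a class of 3943 genes with a median of −0.48, in which HDAC7 was at the 47.8 and HDAC2 at the 38.6 percentile. HDAC1 and HDAC5 were at the 89.8 and 84.9 percentiles of the same class. Of the shorter members, HDAC3 was at the 28.5 and HDAC6 at the 47.9 percentile of the genes of 10 to 30 kb, and HDAC10 at the 52.4 percentile of those under 10 kb. The percentiles describe these libraries, and the part of gene length in the HDAC values was not tested.

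**Figure D4:**
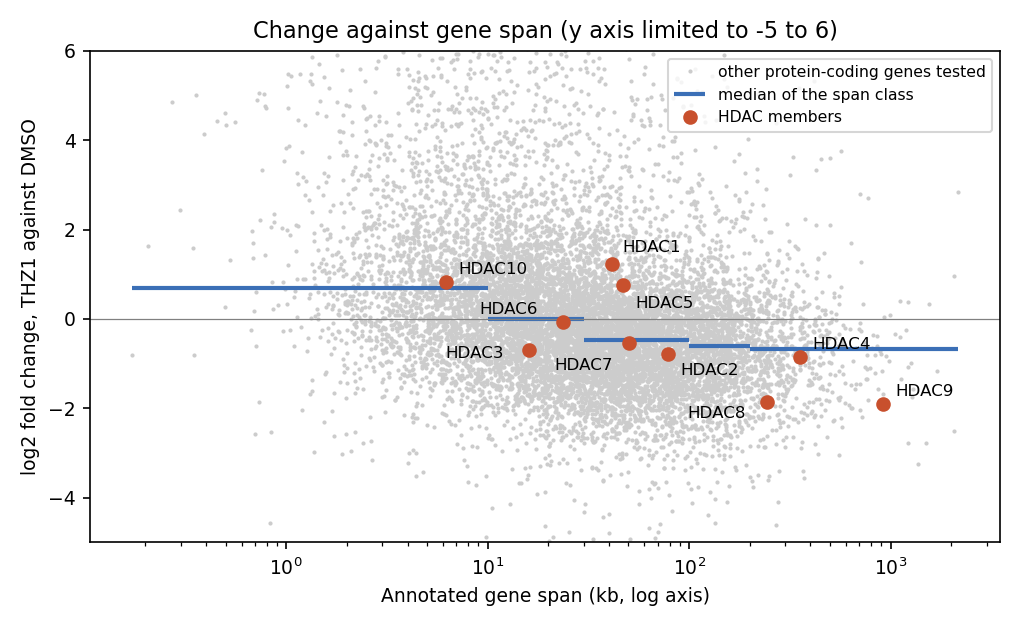
Log2 fold change with THZ1 against the annotated gene span in kb (log axis) for the protein-coding genes tested (grey), with the HDAC genes in red and blue lines at the median of each of 5 span classes; the y axis is limited. HDAC9, HDAC8 and HDAC4 lie at the long end and low, and HDAC1 and HDAC5 lie above the median of −0.48 of their class.

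The corepressor complexes that carry HDAC1, HDAC2 and HDAC3 changed in both directions. Of 16 Sin3 genes tested, 7 were higher and 5 lower, of 13 NuRD genes 3 higher and 7 lower, of 12 CoREST and MiDAC genes 4 higher and 4 lower, and of 5 NCoR and SMRT genes 1 higher and 3 lower. Over all genes 43.5% were higher and 41.1% lower (84.5% in either direction), so that the counts set no complex apart. The medians of these lists were 0.10, −0.34, 0.10 and −0.15 on the log2 scale, against 0.03 for all genes. The genes of the lists here and below are protein-coding, while all genes tested also include non-coding ones. By library size alone the medians of the Sin3 and the CoREST and MiDAC lists were both −0.15, and the median of the NCoR and SMRT list was 0.04 with upper quartile factors. Within NuRD the paralogs MTA1 and MTA2, which tether HDAC1 and HDAC2 to the complex, moved apart. MTA1 fell from 195 ± 11.2 to 41.5 ± 6.91 CPM (log2 fold change −2.23, edgeR adjusted p = 2.3e-20), and MTA2 rose from 279.6 ± 4.89 to 1387 ± 25.2 CPM (log2 fold change 2.31, edgeR adjusted p = 5.0e-24). MBD2, a reader of methylated DNA, fell by 1.16 and CDK2AP1 rose by 1.29 on the log2 scale. In the Sin3 list, ING1, a reader of histone methylation, rose by 1.59 and ARID4A by 1.54, while SAP30 and SINHCAF fell by 0.99 and by 0.91. In the CoREST and MiDAC list RCOR2 rose by 1.96 and ZMYM3 by 0.75, while ZMYM2 fell by 0.91 and GSE1 fell by 0.68. TBL1X, a subunit that HDAC3 shares with NCoR and SMRT, fell from 114 ± 3.88 to 26.1 ± 2.81 CPM (log2 fold change −2.12, edgeR adjusted p = 7.9e-20), and the scaffold NCOR1 rose from 69.3 ± 6.87 to 137 ± 4.43 CPM (log2 fold change 0.98, edgeR adjusted p = 6.4e-13).

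Class IIa enzymes bind MEF2 factors and are held in the cytoplasm by 14-3-3 proteins after phosphorylation by kinases of the PRKD, CAMK and SIK families. Of 20 such genes, 17 were tested, and 7 were higher and 10 lower, against 43.5% and 41.1% of all genes. Of the 7, SFN and CAMK4 passed the filter on low counts only through THZ1-treated libraries, where they are high. With at least 10 counts asked for in every library, 5 were higher and 9 lower, against 40.2% and 42.3% of all genes. The median log2 fold change of the 17 was −0.39, against 0.03 for all genes, and ranged from −0.69 in FPKM to −0.19 with upper quartile factors. SIK1 rose from 7.67 ± 0.740 to 41.3 ± 1.81 CPM, whereas SIK2 fell from 47.1 ± 4.89 to 16.1 ± 2.26 CPM. PRKD3 fell from 46.5 ± 2.25 to 12.1 ± 1.80 CPM. The 14-3-3 gene SFN rose from 0.222 ± 0.252 to 17.4 ± 1.46 CPM. Its DMSO values rest on 6, 0 and 2 counts, near the limit of 3 counts, so the size of its rise is uncertain. CAMK4, named after its value was seen, had at most 1 count in a DMSO-treated library and 7.26 CPM with THZ1, at least 28.7-fold higher against a floor of 3 counts per library.

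Of the other deacetylases, HDAC11 and the 7 sirtuins, 6 of 8 were higher and 0 lower by edgeR, with a median log2 fold change of 0.71, where 43.5% of all genes were higher and 41.1% lower. SIRT6, a nuclear sirtuin, rose from 26.7 ± 4.43 to 184.6 ± 2.25 CPM (log2 fold change 2.79, edgeR adjusted p = 9.6e-23). SIRT1 had a log2 fold change of 0.13 and was not called (edgeR adjusted p = 0.166). All 8 had a log2 fold change above 0 by edgeR, so none could be called lower at any p-value threshold. DESeq2 also called 6 higher and 0 lower. In FPKM 3 were higher and 1 lower by limma, where 35.9% and 44.6% of all genes were. Of 12 lysine acetyltransferases, the opposing enzymes, 2 were higher, 4 lower and 6 not called, with a median of −0.11 that turned to 0.09 with upper quartile factors. The 6 called of 12 compare with 84.5% of all genes. By library size alone 8 were lower, where 48% of all genes were, and in FPKM 7 were lower, where 44.6% of all genes were. KAT2A rose by 0.95 and EP300 by 0.78 on the log2 scale, and HAT1 fell by 0.99 and KAT6B fell by 0.68.

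**Figure D5:**
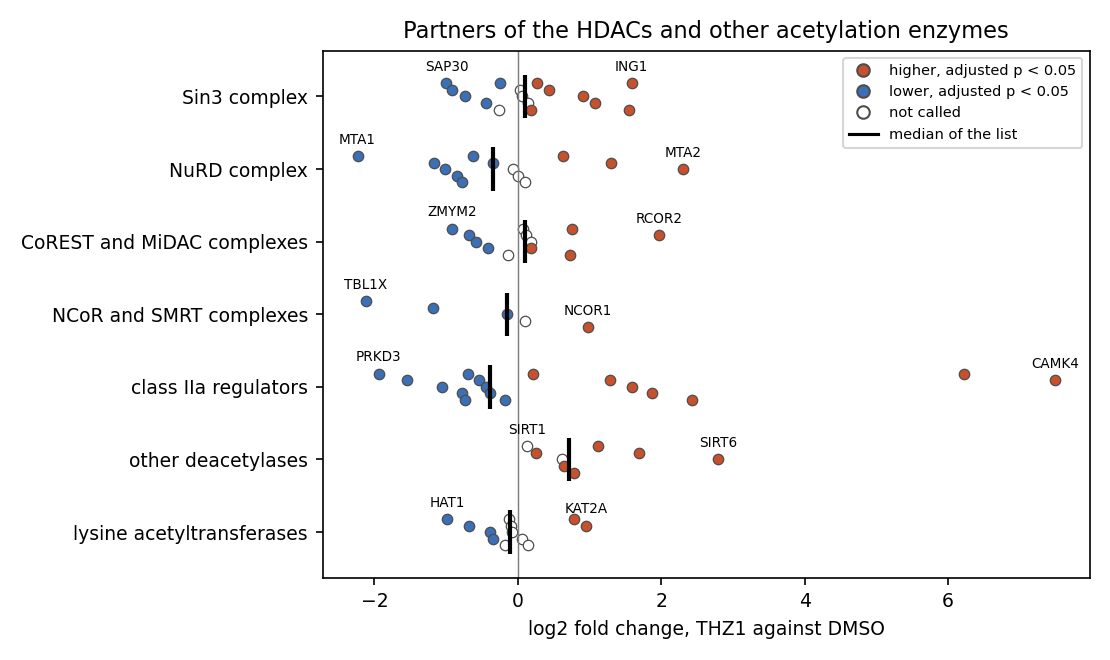
Log2 fold change with THZ1 against DMSO of the genes tested in 7 lists of HDAC partners, class IIa regulators and other acetylation enzymes, with red for genes called higher, blue for lower, white for not called and a bar at the median of each list. The lists spread to both sides of 0 except the other deacetylases, of which 6 of 8 are higher and 0 lower; the value drawn for CAMK4 is a fitted one.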

How the data were processed

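RNA-SEQ of 6 NALM6 libraries was analysed, 3 with DMSO and 3 with THZ1, grouped by the sample titles. The counts deposited by the authors are raw, one value per gene. Their reads had been filtered, aligned by STAR (GRCh37) and assigned to genes by htseq-count. The counting annotation, strand setting and counter version are not given in the sources used here. The second table, deposited by the authors on a log2 scale, holds FPKM calculated by RSEM for 16730 genes, and its values were taken back by subtracting 1 after exponentiation. It also holds the authors' own p-values, fold changes and FDR values, which were not used. Depth was 7876402 to 11164840 counts per library, and replicates differed by more than sampling noise (chi-square per gene 1.77 to 8.58).

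Counts were filtered with filterByExpr at a minimum count of 10 and a total of 15. Library sizes were adjusted by TMM, whose premise is that a typical gene does not change, and genes were tested with edgeR's quasi-likelihood test and Benjamini-Hochberg adjustment. For the FPKM table limma was run on the log2 values of genes with a mean of at least 0.1 FPKM, which all 16730 had. The edgeR standard errors are the log2 difference divided by the root of the F value. Ratios used a prior count of 0.5 and exact permutation tests, two-sided as all tests. Spans and overlaps came from GENCODE 44 mapped to GRCh37, and promoters from RefSeq (GRCh38.p14). The pipeline was tested on simulated data in which few genes changed, as many up as down. In these libraries 84.5% of genes were called, so the simulation did not test the premise of TMM for them. Named genes were all members, genes overlapping them, and the 2 highest and 2 lowest of each list with a mean of at least 5 CPM (1 each in lists of 8 or fewer). The members and lists were chosen with earlier results of these data known. R 4.3.3, edgeR 4.0.16, limma 3.58.1, DESeq2 1.42.0, Python 3.11.15, pandas 2.3.3, numpy 2.4.6, scipy 1.17.1 and matplotlib 3.10.9 were used. Limits from a count of 3 cover counting error only. The alternatives were other scalings and filters, DESeq2, a replicate block, each library left out, and the FPKM values. Some marker genes are not reported here and were left out of the marker sums.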

Additional observations from a re-analysis of the deposited data

How the results depend on the processing

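Of the members, HDAC1 to HDAC5 and HDAC7 to HDAC9 kept their direction and their call under all 16 alternatives. The log2 fold change of HDAC1 ranged from 0.95 to 1.41, that of HDAC2 from −1.03 to −0.59, that of HDAC4 from −2.51 to −0.66, that of HDAC8 from −3.26 to −1.66 and that of HDAC9 from −3.06 to −1.71. In each of the fits without one library, 6 members were lower and 3 higher each time. The HDAC6 log2 fold change turned to 0.065 under a minimum of 10 counts per library and to 0.13 with upper quartile factors, not called in either, and by library size alone or in FPKM HDAC6 was called lower, making 7 members lower. In FPKM the HDAC10 log2 fold change turned to −0.34 with a pseudocount of 1, filtered or not, and to −0.48 with 0.1, and the log2 ratio of HDAC6 to HDAC10 turned to 0.20. Without HDAC1 the class shares differed by −14.1 (class I), 13.7 (class IIa) and 0.371 (class IIb) percentage points. The log2 fold change of SIRT1 was −0.12 by library size alone, that of HDAC2-AS2 −0.10 and −0.20 in FPKM with a pseudocount of 1 and 0.1, and that of SLC48A1 0.018 under the minimum of 10 counts and 0.078 with upper quartile factors. The cause of these changes was not tested. Over genes in both fits, the median log2 fold change moved by 0.19 (upper quartile factors), −0.25 (library size alone) and −0.26 (FPKM with a pseudocount of 1). Of the 83 genes tested in the 7 lists, 30 were called higher and 33 lower, where 43.5% and 41.1% of all genes were. With upper quartile factors 42 were higher and 27 lower, where 48% and 36% of all genes were.

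The deviations of same-numbered libraries from their treatment means correlated at −0.0040, 0.00097 and 0.021. Those of differently numbered libraries correlated at −0.018 to 0.017. No shared signal of the numbers 1 to 3 was thus seen, which cannot tell whether the cultures were handled as pairs. With the replicate block, 6 members were lower and 3 higher. The lists then had 30 genes higher and 33 lower, where 43.2% and 40.8% of all genes were. The log2 ratio of HDAC1 to HDAC2 differed by 2.01 (exact sign permutation, p = 0.25, the smallest that 3 pairs allow).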

Other observations

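Besides HDAC4-AS1, some further antisense RNA genes at HDAC loci were higher with THZ1 and others lower, in counts whose strand setting is not given. Over all genes tested, 43.5% were higher and 41.1% lower. HDAC2-AS2, which starts 1447 bases downstream of the HDAC2 start in RefSeq and shares 69 exonic bases with HDAC2, held 5, 7 and 13 counts with DMSO and 34, 33 and 39 with THZ1 (log2 fold change 2.76, adjusted p = 1.0e-08 by edgeR). In FPKM its log2 fold change was −0.10, not called. HDAC11-AS1, which in RefSeq starts 253 bases upstream of HDAC11 on the opposite strand, held 1, 0 and 0 counts with DMSO and 15, 13 and 18 with THZ1, at least 8.13-fold higher against a floor of 3 counts per library. In the GRCh37 annotation the spans of both genes overlap, since HDAC11-AS1 reaches 13521553 and HDAC11 begins at 13521224. HDAC11 itself, chosen like HDAC11-AS1 after its values were seen, was at 1.72 ± 0.732 CPM (SD, n = 3) in DMSO-treated and 2.64 ± 0.111 CPM in THZ1-treated libraries and was not called (adjusted p = 0.0854 by edgeR). HDAC9-AS1 held at most 1 count in any library. ENSG00000267638, antisense within HDAC5 with 0 shared exonic bases, held 5, 0 and 0 counts with DMSO and 18, 17 and 18 with THZ1 (log2 fold change 3.98, adjusted p = 2.3e-07 by edgeR). Its DMSO values lie near the limit of 3 counts, so the size of its rise is uncertain. HDAC4-AS1, HDAC2-AS2, HDAC11-AS1 and ENSG00000267638 passed the filter on low counts only through THZ1-treated libraries, where they are high. Their p-values thus give no separate support for a rise. In contrast, ENSG00000268069, which shares 963 exonic bases with HDAC7 on the opposite strand, fell by 1.02 on the log2 scale (adjusted p = 3.3e-08 by edgeR). ENSG00000228737, opposite HDAC3, likewise fell by 1.08 (adjusted p = 3.4e-09 by edgeR).

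The protein-coding genes that overlap members on the opposite strand were G6PC3 at HDAC5 and SLC48A1 at HDAC7. The mean CPM of G6PC3 was 33.3 in DMSO-treated and 28.6 in THZ1-treated libraries, that of SLC48A1 20.8 and 19.2, and neither was called (adjusted p = 0.0607 and 0.368 by edgeR). G6PC3 shares 1826 exonic bases with HDAC5.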
